A study of Homo sapiens with 6 samples.

Results

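Urokinase (PLAU), its receptor (PLAUR), the second plasminogen activator (PLAT) and the inhibitor SERPINE2 were followed across the 3 groups of an array study of A431 cells. The 4 genes were taken by name from the platform's gene annotation, each had 1 probe set, and together they are 4 of the 17687 genes with a named probe set. A431 is a human line from an epidermoid carcinoma, known for its abundance of the EGF receptor. Cells of the EGF plus gefitinib group received EGF (epidermal growth factor) at 100 ng/ml and 10 µM gefitinib, which blocks the kinase of that receptor, the EGF group had the same dose of EGF alone, and the control group had no treatment. The labels give every sample the same protocol, by which cells grown with 10% serum were starved for 24 h and harvested 30 min after treatment. That text leaves unsaid in which order gefitinib and EGF were added and whether the 30 min hold for each group. Each group held 2 arrays. The labels call them biological replicates, but do not name separate cultures, so a p-value reflects the spread between these arrays only, and that spread may be technical. All cells are of 1 line, and no group had gefitinib without EGF.

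Urokinase is a secreted serine protease that cuts plasminogen into plasmin, a broad protease that degrades fibrin and matrix and activates other proteases. Its receptor, a protein held at the cell surface by a lipid anchor, binds urokinase and gathers this activity at the membrane, where it also works with integrins and the matrix protein vitronectin in adhesion and migration. Tissue plasminogen activator, the product of PLAT, makes the same cut and is best known for dissolving clots. SERPINE2, also called protease nexin 1, is a serpin that inhibits thrombin, urokinase and tissue plasminogen activator. Growth factors, phorbol esters and wounding are known to raise urokinase and its receptor in epithelial cells, in part through AP-1 and ETS transcription factors.

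The regions around the start sites of PLAUR and PLAU are shown because both genes were higher with EGF but differed with gefitinib. They run from 250 bases before to 50 bases after the start site and were taken from RefSeq (GRCh38.p14). PLAUR lies at chr19:43670120-43670419 on the minus strand, and the start of PLAU shown here at chr10:73910882-73911181 on the plus strand. Capitals mark matches to the AP-1 motif TGANTCA and to the ETS motifs CCGGAAN and GAGGAAN on either strand.
PLAUR: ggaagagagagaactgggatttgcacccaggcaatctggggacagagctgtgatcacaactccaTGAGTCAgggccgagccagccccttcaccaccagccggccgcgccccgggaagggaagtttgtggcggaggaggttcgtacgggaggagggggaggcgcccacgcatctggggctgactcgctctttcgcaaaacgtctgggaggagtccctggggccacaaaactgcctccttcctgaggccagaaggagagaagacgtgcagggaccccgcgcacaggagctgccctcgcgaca
PLAU: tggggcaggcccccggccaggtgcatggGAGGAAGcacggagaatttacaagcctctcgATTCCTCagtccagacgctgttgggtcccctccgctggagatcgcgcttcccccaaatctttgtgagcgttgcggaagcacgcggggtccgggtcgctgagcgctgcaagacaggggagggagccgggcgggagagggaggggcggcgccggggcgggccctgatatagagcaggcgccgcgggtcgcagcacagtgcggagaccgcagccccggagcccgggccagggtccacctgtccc
The PLAUR window held 1 match to TGANTCA, from base −186 to base −180 before the start, and none to either ETS motif. The PLAU window held 2 matches to GAGGAAN, from −222 to −216 and, on the other strand, from −191 to −185, and no match to TGANTCA. Of 35116 RefSeq windows of 300 bases, 7.71% held TGANTCA, 27.8% GAGGAAN and 17.2% CCGGAAN. The SP1 motif GGGCGG, found in 45% of windows, had 3 matches in the PLAU window and 0 in that of PLAUR. A looser NF-kB pattern, GGG and CC with 5 free bases between them, was found in 58.7% of windows and in both of these, in that of PLAU partly overlapping SP1 matches. A further PLAU start in the same table, at chr10:73910360-73910659, held none of the AP-1, ETS or SP1 motifs. Of 2 SERPINE2 windows, the first held 1 match to GAGGAAN and the second 0, and both held 0 to TGANTCA and CCGGAAN. The region of PLAT was not searched, although PLAT was also lower with gefitinib. A match describes these letters and shows neither binding nor a cause, and which start the cells used was not measured. Bases outside the windows were not searched, so a motif absent here may lie elsewhere near the gene. Whether these motifs bear on the response to EGF or gefitinib was not tested.

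All values are the deposited log2 values, and a change is the log2 difference of 2 group means ± its standard error in limma (n = 2 arrays in each group). Their precision is limited by the number of arrays. On single arrays 38.4% to 42.1% of the 21448 transcript probe sets lay above the background limit, set for each array at percentile 95 of its negative controls (7.14 to 7.65). Arrays of a group correlated across probe sets at 0.991 to 0.994 (genes are not independent replicates). All 8 measured A431 markers, among them EGFR, the basal keratins KRT5 and KRT14 and the adhesion proteins CDH1 and EPCAM, lay above the limit on every array. The transcripts covered by a member's probe set, 2 each for PLAU and PLAT and 4 each for PLAUR and SERPINE2, cannot be told apart.

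EGF raised urokinase, its receptor and tissue plasminogen activator. PLAUR was 7.71-fold higher in EGF than in control cells (95% interval 5.21 to 11.4), PLAT 7.47-fold (5.33 to 10.5) and PLAU 4.49-fold (3.34 to 6.03). SERPINE2 pointed the same way but did not pass the test. With gefitinib added, the receptor and PLAT were much lower than with EGF alone, while urokinase was not called lower and remained above control. Thus 3 of the 4 genes were called higher with EGF, beside 6.61% of all probe sets tested, and 2 of the 4 were called lower with gefitinib than with EGF alone, beside 9.81% of all. The arrays of the 2 groups did not overlap for any of the 4 genes with EGF against control, and for 3 of them with EGF plus gefitinib against EGF, beside 55.5% and 57.1% of all probe sets. The genes were picked with this response known, so the counts describe them and do not test them.

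**Figure D1:**
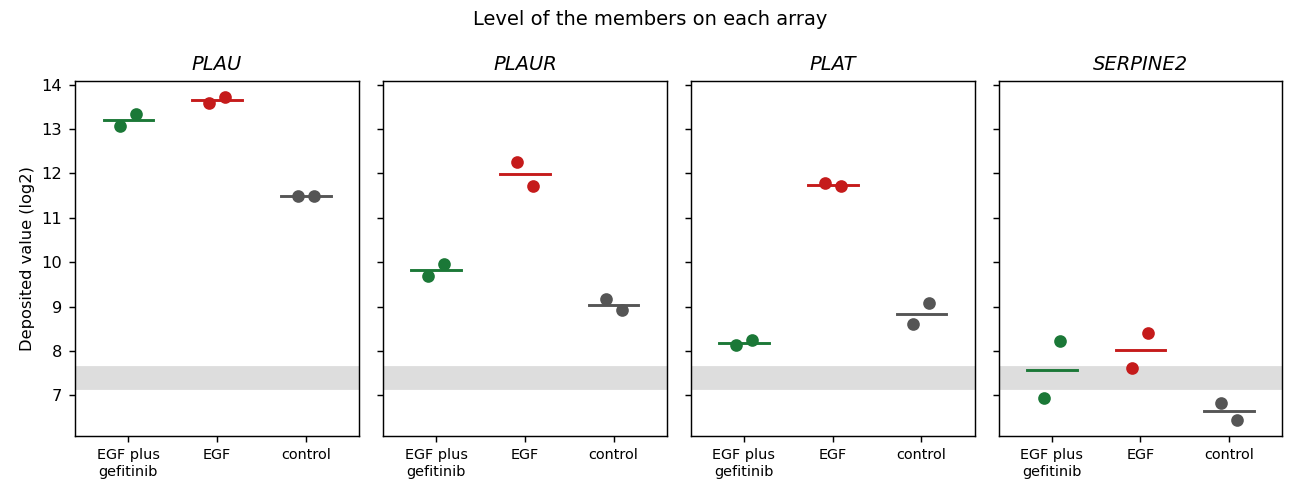
Deposited log2 value of PLAU, PLAUR, PLAT and SERPINE2 on each of the 6 arrays, with EGF plus gefitinib, EGF and control cells from left to right. Points are arrays, short lines are group means (n = 2), and the grey band spans the background limits of the arrays (7.14 to 7.65). PLAU stayed near its EGF level with gefitinib, PLAUR and PLAT did not, and SERPINE2 lay close to the band.

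Urokinase, the protease, had values of 13.60 and 13.72 on the EGF arrays, against 11.48 and 11.50 on the control arrays. Both EGF arrays lay above both controls, and the gap was many times the spread within either group. The change was 2.17 ± 0.18 (limma, adjusted p = 0.00121), the 98th largest rise among the 21448 probe sets. With EGF plus gefitinib PLAU measured 13.07 and 13.33, against 13.60 and 13.72 with EGF alone. These arrays did not overlap with the EGF arrays, but they sat far closer to them than to the controls. The difference of −0.46 ± 0.18 (95% interval −0.88 to −0.03) was not called (limma, unadjusted p = 0.0394, adjusted p = 0.134). It was called when dim probe sets were not fitted (adjusted p = 0.0315) or the variance was allowed to follow the mean (adjusted p = 0.0112), with the same difference.

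Against control, urokinase was 3.27-fold higher in EGF plus gefitinib cells (95% interval 2.43 to 4.40). The means were 13.20 ± 0.18 with EGF plus gefitinib and 11.49 ± 0.01 in control cells (SD, n = 2). The change of 1.71 ± 0.18 was called (limma, adjusted p = 0.00963) and was the 67th largest rise of that comparison, in which 2.19% of all probe sets were called higher, 1.7% were called lower and 50.4% had arrays that did not overlap. The call was lost without EGF plus gefitinib 2, control 1 or control 2 (adjusted p = 0.0727 to 0.0845), although the change itself was then 1.58 to 1.72.

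The urokinase receptor measured 12.26 and 11.72 on the EGF arrays, against 9.16 and 8.92 on the control arrays. EGF 1 was the higher of the EGF arrays, and both were far above the controls. The change was 2.95 ± 0.24 (limma, adjusted p = 0.00119), the 35th largest rise. In EGF plus gefitinib cells PLAUR measured 9.68 and 9.97, against 12.26 and 11.72 with EGF alone, a change of −2.16 ± 0.24 (limma, adjusted p = 0.00159) that put it 4.48-fold lower. The EGF plus gefitinib arrays still lay above both controls. That remaining difference of 0.78 ± 0.24 (95% interval 0.22 to 1.35) was not called (adjusted p = 0.12), except when dim probe sets were left out (adjusted p = 0.0309) or with a mean-variance trend (adjusted p = 0.0149).

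Tissue plasminogen activator had the widest span of the 4 genes. PLAT measured 11.78 and 11.71 with EGF, against 8.62 and 9.07 in control cells. Here the 2 EGF arrays were nearly equal and the controls less so. The change was 2.90 ± 0.21 (limma, adjusted p = 0.000671), the 38th largest rise. In EGF plus gefitinib cells PLAT measured 8.13 and 8.25, against 11.78 and 11.71 with EGF alone, which put it 11.8-fold lower (95% interval of the log2 change −4.04 to −3.07, adjusted p = 0.000243) and made it the 27th largest fall of all probe sets. Both EGF plus gefitinib arrays lay under both controls, at −0.65 ± 0.21 from them, or −0.43 without control 2. This was not called (adjusted p = 0.13) in the fit of all probe sets, but was with dim probe sets left out (adjusted p = 0.03) or with a mean-variance trend (adjusted p = 0.0328).

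The inhibitor SERPINE2 was dim and uneven. It measured 7.62 and 8.41 with EGF, against 6.84 and 6.45 in control cells, where both arrays lay within the negative-control range. The mean of the EGF arrays was 1.65-fold above the background limit of the control arrays, a figure that does not allow for the spread between arrays. The fitted change of 1.37 ± 0.44 (95% interval of the fold 1.26 to 5.31) missed the threshold (limma, adjusted p = 0.0952). It passed in 5 of the 12 alternatives (adjusted p = 0.0142 to 0.0471), with the same change. In EGF plus gefitinib cells it measured 6.93 and 8.22, so 1 array sat with the controls and the other with the EGF arrays. Neither comparison of that group was called: the difference was −0.44 ± 0.44 from EGF (adjusted p = 0.556) and 0.93 ± 0.44 from control (adjusted p = 0.289). Without EGF plus gefitinib 1 the first of these turned to 0.20 and the second was 1.57. Without EGF plus gefitinib 2 the second was 0.29.

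**Figure D2:**
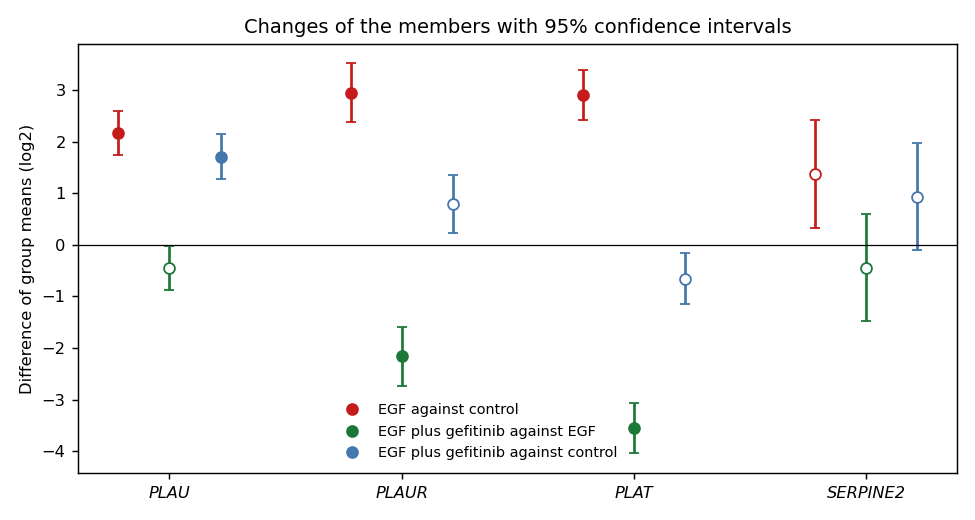
Log2 difference between group means for each gene in the 3 comparisons, with 95% confidence intervals from the limma fit (n = 2 arrays per group). Filled points passed an adjusted p of 0.05 and open points did not. The EGF plus gefitinib against EGF interval of PLAU ends just under 0, whereas that of PLAUR ends at −1.60 and that of PLAT at −3.07.

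PLAU, PLAUR and PLAT differed from each other in their change with gefitinib on these arrays, though the test below could not decide this. The change of PLAU with EGF plus gefitinib against EGF was 1.71 log2 units above that of PLAUR and 3.10 above that of PLAT, and the change of PLAUR was 1.39 above that of PLAT. In each of these 3 pairs the difference between the genes' values on an array did not overlap between the groups. Of single probe sets, 57.1% also had arrays that did not overlap in this comparison, so such a separation alone says little. An exact two-sided permutation test of 2 arrays against 2 cannot go below p = 0.333, which is the value each of these pairs gave (adjusted p = 0.4 over 6 pairs in 3 comparisons). For EGF plus gefitinib against EGF, the change of PLAU lay −0.01 from that of SERPINE2, with arrays that overlapped. The changes of PLAUR and PLAT lay −1.72 and −3.11 from that of SERPINE2 without overlap. For EGF against control, PLAUR and PLAT changed by amounts that differed by 0.04 log2 units and overlapped between arrays. The 3 comparisons share arrays, so a high EGF array raises one change and lowers another.

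Genes with a pattern close to urokinase were sought among 8104 named genes above the background limit on at least 2 arrays, by the Euclidean distance between the 6 values of each gene after centring on its own mean. The changes of genes found this way follow from the choice and only describe it. The nearest were ITGA2, an integrin subunit that binds collagen (0.50 log2 units), DUSP5, a nuclear phosphatase of ERK (0.51), EPHA2, an ephrin receptor (0.54), FOXN2, a forkhead factor (0.58), and KLF6, a zinc finger transcription factor (0.59). With EGF against control the other 4 changed by 1.84 for ITGA2 to 2.18 for DUSP5, and FOXN2, which lay under the limit on both control arrays, was at least 2.42-fold higher. In EGF plus gefitinib cells the 5 genes differed from EGF by −0.63 for DUSP5 to −0.09 for KLF6, none of them called (adjusted p = 0.0534 to 0.816). From control, 4 differed there by 1.24 for EPHA2 to 2.08 for KLF6, and FOXN2 was at least 1.82-fold higher. All 5 calls against control were lost without EGF plus gefitinib 2, control 1 or control 2 in turn. Nearly all calls of that comparison were lost then, so this is no likeness to PLAU. Those of ITGA2 and FOXN2 were also lost with only the 4 arrays compared, unlike that of PLAU.

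For the receptor the nearest genes were TRIB1, a pseudokinase that steers protein degradation (0.56), FST, the activin inhibitor follistatin (0.63), TAGLN, an actin-binding protein (0.64), IL1A, an epithelial alarm cytokine (0.65), and EREG, the EGF family ligand epiregulin (0.66). All 5 were called higher with EGF and lower with gefitinib than with EGF alone, beside 6.61% and 9.81% of all probe sets. They were picked for a pattern like that of PLAUR on these same arrays, so these directions follow from the choice. TRIB1, FST and IL1A rose by 2.59 for TRIB1 to 3.28 for FST, and differed between EGF plus gefitinib and EGF by −1.85 for TRIB1 to −2.49 for FST. TAGLN and EREG lay within the negative-control range in EGF plus gefitinib and in control cells. They were at least 3.83-fold and 3.29-fold lower with EGF plus gefitinib than with EGF, and at least 4.34-fold and 3.73-fold higher with EGF than in control cells. PLAU and PLAUR themselves stood 1.78 log2 units apart on the same measure, PLAU and PLAT 3.26, and PLAUR and PLAT 1.74.

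**Figure D3:**
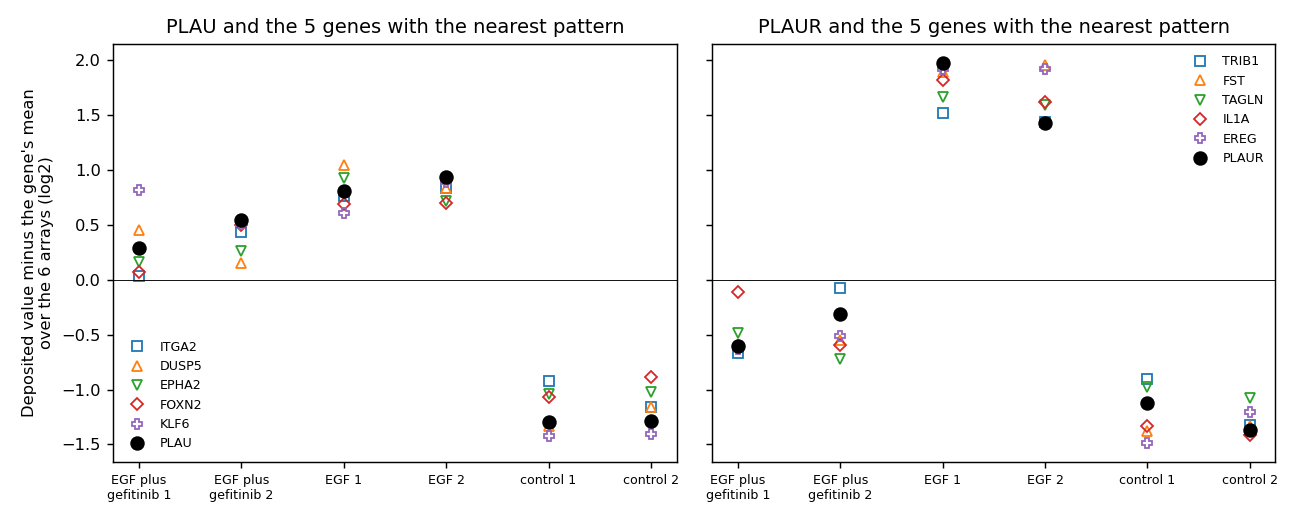
Value on each array minus the gene's mean over the 6 arrays (log2), for PLAU (left) and PLAUR (right) as filled circles and the 5 nearest genes of each as open symbols. The PLAU set is high on EGF plus gefitinib and EGF arrays and low on controls, and the PLAUR set is high on the EGF arrays only, among these genes and arrays.

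The other measured genes of the plasminogen activation list were at background. There were 7 of them, and 0 of these 7 lay above the limit on any array: plasminogen (PLG), the contact proteases KLKB1 and F12, and the inhibitors SERPINA5, SERPINI1, SERPINF2 and CPB2. Their fitted changes with EGF ran from −0.53 for PLG to 0.25 for KLKB1 and were not called (adjusted p = 0.217 to 0.969). SERPINI1, neuroserpin, inhibits tissue plasminogen activator. It measured 5.82 and 7.21 with EGF plus gefitinib, against 5.58 and 5.17 with EGF (1.14, adjusted p = 0.115), all under the limit. Without 1 array that difference ran from 0.45 to 1.83, and it passed the threshold without EGF plus gefitinib 1 (1.83) and with a mean-variance trend. Over the 11 measured genes of the list, the median change with EGF was 0.19, against −0.03 over all probe sets.

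Of 5 measured genes for proteins that hold plasminogen at the cell surface (PLGRKT, ANXA2, S100A10, ENO1 and HMGB1), 0 were called in any comparison by limma. The median was 0.19 for EGF against control. Of all probe sets 6.61% were called higher and 5.3% lower with EGF, and 8.86% and 9.81% with EGF plus gefitinib against EGF. Against control with gefitinib the shares were 2.19% and 1.7%. With only 5 genes, a count of 0 is near these shares. At an unadjusted p under 0.05, 1 was higher with EGF against control, 3 were lower with EGF plus gefitinib against EGF and 0 passed against control with gefitinib. Of all 21448 probe sets, 2953 were higher and 3274 lower in the first and second of these by the same measure. At the bright end ANXA2, annexin A2, measured 17.83 and 17.79 with EGF, against 17.53 and 17.52 in control cells (0.29, adjusted p = 0.33). Its partner S100A10 differed by 0.15 (adjusted p = 0.65). Both were named after their values were seen.

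Among 7 receptors and helpers that take up complexes of urokinase with its inhibitors, 1 rose and 1 fell with EGF, beside 6.61% and 5.3% of all probe sets. LRP8, a receptor of the LDL receptor family, measured 11.83 and 11.89 with EGF, against 9.23 and 9.57 in control cells (2.46 ± 0.19, adjusted p = 0.000924). With gefitinib it was lower than with EGF, by −2.96 ± 0.19 (adjusted p = 0.000284). LRP1, the main clearance receptor for these complexes, ran the other way. It measured 7.30 and 8.01 with EGF, against 8.63 and 8.92 in control cells (−1.11 ± 0.26, adjusted p = 0.0368), a call lost in 6 of 12 alternatives. In EGF plus gefitinib cells LRP1 measured 9.83 and 9.95, against 7.30 and 8.01 with EGF (2.23 ± 0.26, adjusted p = 0.00195). Of all probe sets 8.86% were called higher in that comparison. The other gene of the list called higher there was SORL1, named after its values were seen (2.42 ± 0.46, adjusted p = 0.0113). Its EGF plus gefitinib arrays were uneven, at 8.94 and 10.53. For LRP1 and for SORL1 only 1 of the 2 EGF arrays lay above the limit, so their EGF values were near background.

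The receptor has no part inside the cell and signals through partners, of which 10 were measured. With EGF 3 were called higher and 0 lower by limma, beside 6.61% and 5.3% of all probe sets, with a median of 0.31. At an unadjusted p under 0.05 the counts were also 3 and 0, beside 2953 and 2724 of all 21448 probe sets. ITGA5, the fibronectin receptor subunit, measured 11.93 and 11.99 with EGF, against 10.15 and 9.90 in control cells (1.94 ± 0.27, adjusted p = 0.0058). ITGA3, a laminin receptor subunit known to bind the urokinase receptor, changed by 1.61 ± 0.19 (adjusted p = 0.00334), and ITGB1, the beta subunit common to both, by 0.66 ± 0.17 (adjusted p = 0.0480), a call lost in 8 of 12 alternatives. With gefitinib ITGA5 was lower than with EGF by −2.51 ± 0.27 (adjusted p = 0.0013). ITGA3 was lower by −0.97 ± 0.19 (adjusted p = 0.0119), a call lost without EGF plus gefitinib 1, EGF 1 or EGF 2. Vitronectin (VTN), ITGB3 and the formyl peptide receptors FPR1, FPR2 and FPR3 lay at or under the limit on every array.

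Of 6 metalloproteinases that plasmin can activate, 0 were called higher and 2 lower with EGF by limma, beside 6.61% and 5.3% of all probe sets. At an unadjusted p under 0.05 the counts were 1 and 2, beside 2953 and 2724 of all 21448. MMP13, collagenase 3, measured 11.69 and 11.53 with EGF, against 13.39 and 13.53 in control cells (−1.85 ± 0.19, adjusted p = 0.00233), opposite in sign to urokinase. With EGF plus gefitinib it measured 13.25 and 12.96, higher than with EGF (1.49 ± 0.19, adjusted p = 0.00262). In that comparison 2 of the 6 were called higher and 1 lower, beside 8.86% and 9.81% of all probe sets. MMP14 was higher by 0.87 ± 0.17 (limma, adjusted p = 0.0128), and MMP1 was at least 1.46-fold lower (adjusted p = 0.003). MMP1 pointed up with EGF against control (0.61 ± 0.18, adjusted p = 0.0743), which was not called. MMP14 and MMP1 were named after their values were seen. MMP10, stromelysin 2, lay under the limit on every array (−0.80 ± 0.21 with EGF, adjusted p = 0.0492), and that call was lost in 8 of 11 alternatives.

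The factors known to act at the urokinase and receptor genes moved in both directions. Of 15 measured AP-1, ETS, SP1 and NF-kB genes 4 rose and 3 fell with EGF, beside 6.61% and 5.3% of all probe sets, with a median of 0.26. Without 1 array in turn these counts were 3 to 5 and 0 to 2. The genes that fell with EGF were JUND, SP1 and FOSB. With EGF plus gefitinib against EGF 6 of the 15 were called higher and 3 lower, beside 8.86% and 9.81% of all probe sets. Against control with gefitinib 3 were called higher, JUN, ATF3 and ETV5, beside 2.19%. All of these but JUN were named after their values were seen. FOSL1, an AP-1 subunit, measured 10.21 and 9.55 with EGF plus gefitinib, and 13.88 and 13.87 with EGF. In control cells FOSL1 measured 9.95 and 9.79, so that it was high on the EGF arrays only. ETS1 measured 9.67 and 10.05 with EGF plus gefitinib, 11.45 and 11.28 with EGF, and 9.62 and 9.82 in control cells. FOS, named after its values were seen, lay under the limit on every array, with means of 4.88 with EGF and 5.31 in control cells. JUN, the AP-1 partner of FOSL1, measured 11.14 and 10.74 with EGF plus gefitinib, and 10.16 and 10.23 with EGF. In control cells JUN measured 8.55 and 8.22, so that both treated groups lay above control. JUN was higher with EGF plus gefitinib than with EGF (0.74 ± 0.22, limma, adjusted p = 0.0553), which was not called. Urokinase pointed the other way in that comparison (−0.46). The change of JUN was 1.81 ± 0.22 for EGF against control (adjusted p = 0.00368) and 2.55 ± 0.22 for EGF plus gefitinib against control (adjusted p = 0.0069), the second lost without EGF plus gefitinib 2, control 1 or control 2.

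**Figure D4:**
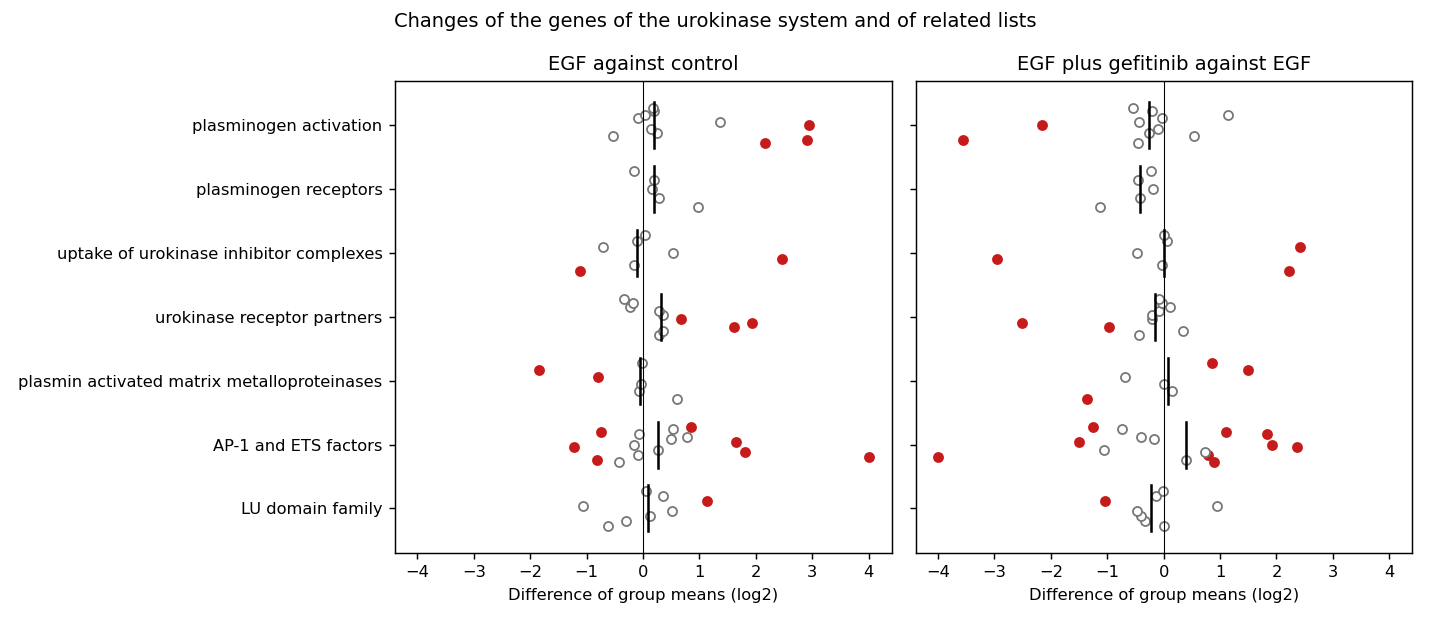
Log2 change of each measured gene of 7 lists for EGF against control (left) and EGF plus gefitinib against EGF (right). Filled points passed an adjusted p of 0.05, open points did not, and vertical bars are list medians. Plasminogen activation has 3 filled points above 0 in the left panel (PLAU, PLAUR and PLAT) and 2 below 0 in the right (PLAUR and PLAT).

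The receptor belongs to a family with the Ly6 and urokinase receptor fold, and of 8 measured relatives from outside chromosome 8, 1 rose with EGF, beside 6.61% of all probe sets. Of the 8, 3 lay above the limit on any array. The gene that rose was CD59, an inhibitor of complement (1.13 ± 0.19, adjusted p = 0.0127), a call lost without EGF 1, EGF 2 or control 2. The structural homologue LYPD3 measured 11.82 and 11.82 with EGF, against 12.05 and 12.19 in control cells (−0.30, adjusted p = 0.38), and was named after its values were seen. Neighbouring genes on the chromosomes were named from RefSeq, and their counts stand beside 6.61% of all probe sets called higher and 5.3% called lower with EGF. Of the 6 nearest protein-coding genes of PLAUR 6 were measured and 0 were called (limma, adjusted p = 0.101 to 0.866, with 1 at an unadjusted p under 0.05, SMG9, named after its values were seen). Of 5 measured neighbours of PLAU, CAMK2G fell (−1.63 ± 0.20, adjusted p = 0.00397) and VCL, the focal adhesion protein vinculin, rose (0.80 ± 0.17, adjusted p = 0.0278), both named after their values were seen. Of the 6 measured neighbours of PLAT and the 5 of SERPINE2, 0 were called with EGF. C10orf55, a non-coding gene that overlaps PLAU, had no named probe set.

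By their labels all samples are A431 cells. Cells other than A431 can also express these genes, so markers of fibroblasts, leukocytes and endothelium were examined. In these bulk samples, fewer cells of a type and less RNA per cell cannot be told apart. With EGF 0 of 8 fibroblast markers were called higher and 2 lower, 1 and 0 of 8 leukocyte markers, and 1 and 1 of 8 endothelial markers, beside 6.61% higher and 5.3% lower of all probe sets. Of the fibroblast markers 1 lay above the limit on both arrays in EGF plus gefitinib and in EGF cells and 2 in control cells, with COL1A1 and PDGFRA under it throughout, and the summed linear level was 573 to 766 with EGF plus gefitinib, 524 to 639 with EGF and 1057 to 1126 in control cells. The leukocyte markers above the limit were CD68 and LCP1, which epithelial lines also express, and PTPRC, the defining marker, lay under it. Their sum was 6843 to 9062 with EGF plus gefitinib, 17101 to 17636 with EGF and 10623 to 10724 in control cells, and LCP1 was called higher with EGF (1.43 ± 0.20, adjusted p = 0.00656). Of 8 endothelial markers 0, 1 and 0 lay above the limit on both arrays of those groups, with sums of 449 to 470 with EGF plus gefitinib, up to 554 with EGF and 397 to 485 in control cells, and PECAM1 and VWF lay under it throughout. The endothelial cadherin CDH5 averaged 7.59 ± 0.16 with EGF plus gefitinib, 5.03 ± 0.26 with EGF and 7.25 ± 0.35 in control cells (SD, n = 2), and was called lower with EGF (adjusted p = 0.0027) and higher with EGF plus gefitinib than with EGF (adjusted p = 0.000901), near or under the limit in every group. The ETS factor ERG was called higher with EGF (0.96 ± 0.23, adjusted p = 0.0388) and at least 1.95-fold lower with EGF plus gefitinib than with EGF (adjusted p = 0.00621). The fibroblast markers called lower with EGF were LUM (−1.34 ± 0.26, adjusted p = 0.0194) and DCN, which lay under the limit. The summed level of the 8 A431 markers moved as well. It was 253963 to 267423 with EGF plus gefitinib, 376549 to 397070 with EGF and 273431 to 275882 in control cells. The part of any of these shifts in the members' changes was not tested.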

How the data were processed

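RNA of 6 A431 samples was measured on 1 array each. The authors made the log2 values they deposited with Transcriptome Analysis Console, a tool named in the submitters' processing notes. Not given in the sources used here are its version, background correction, summarization and normalization. That the scale is log2 follows from their range. Of 24351 probe sets, 2903 controls were left out and 21448 were tested with no filter. The platform annotation named 17709 of these, for 17687 genes, and 3739 are unnamed here. The brightest probe set stood for a gene.

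One limma 3.58.1 fit (lmFit and eBayes, R 4.3.3), tested on simulated data, took all 6 arrays with 3 group means (3 residual and 4.22 prior degrees of freedom), with two-sided tests, Benjamini-Hochberg adjustment over all 21448 probe sets and a call at an adjusted p under 0.05. Where both arrays of a group lay at or below the 95th percentile of their 612 negative controls, a fold was taken against the mean of that limit. Such a fold is a lower bound for the means only and does not allow for the spread between arrays.

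Members, lists, motifs and tests were chosen with earlier results of these data known. The lists held 101 genes, 94 with a probe set. Named were the members, the plasminogen activation list, up to 3 genes per other list (called with EGF, largest moderated statistic), and 5 nearest genes each for PLAU and PLAUR. Defining markers, and genes said to be named after their values were seen, fall outside this rule. Alternatives were leaving out each array, only the 4 arrays compared, a replicate block, quantile or median scaling, leaving out dim probe sets (not above the limit on at least 2 arrays) and a mean-variance trend.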

Additional observations from a re-analysis of the deposited data

How the results depend on the processing

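The 12 changes of the members (4 genes in 3 comparisons) were recomputed under 12 alternatives each. Of these 144 values 129 kept their direction and their side of the threshold, 11 newly passed it, 3 no longer passed it and 1 turned its sign. For EGF against control the calls of PLAU (2.09 to 2.23), PLAUR (2.67 to 3.22) and PLAT (2.68 to 3.13) held in all 12, as did those of PLAUR (−2.43 to −1.89) and PLAT (−3.63 to −3.49) for EGF plus gefitinib against EGF. SERPINE2 passed for EGF against control (1.37) with only the 4 arrays compared, above the limit on at least 2 arrays, with the trend and without EGF plus gefitinib 1 or 2, and ran from 0.98 to 1.77 without 1 array. Its change for EGF plus gefitinib against EGF ran from −1.08 to 0.20 without 1 array, the turned value being 0.20. Leaving out dim probe sets or fitting the trend, which leave the change as it is, put PLAU (−0.46) past the threshold for EGF plus gefitinib against EGF, and PLAUR (0.78) and PLAT (−0.65) for EGF plus gefitinib against control. For EGF plus gefitinib against control, leaving out 1 array gave 1.58 to 1.84 for PLAU, −0.88 to −0.43 for PLAT and 0.29 to 1.57 for SERPINE2.

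Counts of called probe sets moved more. For EGF against control they were 2554, with 726 to 2506 without 1 array, 3945 without dim probe sets and 4237 with the trend. For EGF plus gefitinib against EGF they were 4005, with 1889 to 3406 without 1 array. For EGF plus gefitinib against control they were 834, with 0 to 247 without 1 array, 247 with only the 4 arrays compared, 333 with the replicate block, 2538 without dim probe sets and 2770 with the trend. Same-numbered arrays did not deviate together across all probe sets (correlations −0.04 to 0.02), most of which lay under the limit on a single array. This shows no large shared shift, but cannot tell whether the numbers mark a shared culture or day. The replicate block changed no member's call. No member had a further probe set to try. Alternatives for genes and lists that are not members were added after seeing the data. With 2 arrays per group, changes of dim genes such as SERPINE2 are limited by their nearness to background.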
